A study of Mus musculus with 38 samples.

Results

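The mouse carboxylesterases measured here were Ces1d, Ces1f, Ces1g, Ces2a, Ces2b, Ces2c, Ces2e and Ces2g, 8 of the 20018 genes with a symbol on the array. All 11 of their probes, of 55681 probes in all, were taken by the RefSeq accession that the array files print beside each probe. Ces2c had 3 probes, Ces2e had 2 and each of the other genes had 1. The genes were listed when the lung response of Ces2c was already known, so every lung difference between a dose group and the vehicle group is given as a description without a p-value. The tissues were the lung and forestomach of male Muta™Mouse, a transgenic strain used for mutation assays, aged about 10 weeks. Mice were gavaged daily for 28 days with the polycyclic aromatic hydrocarbon dibenz(ah)anthracene (DBahA) in olive oil, and tissue was taken 72 h after the last dose. Vehicle mice (D0) received olive oil alone, and the daily DBahA dose per kg of body weight was 6.25 mg for D1, 12.5 mg for D2 and 25 mg for D3. The lung arrays covered 5 vehicle mice and 5, 4 and 5 mice of the rising doses. The forestomach arrays covered 5 vehicle mice, 5 mice of D1 and 4 of D2, and 5 arrays of D3 that carry 4 mouse numbers. RNA came from random sections of whole tissue. Both arrays numbered mouse 18 were averaged to 1 replicate. No forestomach array is numbered 20, and the labels do not settle whether the second of the pair is another mouse. Each value is the log2 ratio of the tissue RNA, labelled with Cy5, to a reference RNA pooled from 11 mouse cell lines and labelled with Cy3, so 0 means a signal equal to that of the reference and 1 log2 unit is a doubling.

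Carboxylesterases are serine hydrolases that cleave ester, thioester and amide bonds in drugs, environmental chemicals and lipids, and most are held in the lumen of the endoplasmic reticulum. Ces1 enzymes are abundant in liver and also act on stored fat, whereas Ces2 enzymes are best known from the intestine and liver. Ces1d is a triacylglycerol hydrolase, Ces2c is also called acylcarnitine hydrolase, and Ces2a and Ces2e are also named pyrethroid hydrolases. The genes all lie on chromosome 8. In the RefSeq annotation of mouse assembly GRCm38.p6 the Ces1 genes and Ces5a come first. Then come Ces2a, Ces2b, Ces2c, the pseudogene Ces2d-ps, Ces2e, Ces2f, Ces2g and Ces2h. Only carboxylesterase genes were ordered, so genes that lie between them are not shown. The promoter window of Ces1g starts at base 93337210, and those of Ces2a and Ces2g at 104733753 and 104961468. The Ces1 and Ces2 genes thus lie apart. Family members are similar in sequence, and the probe sequences were not used here, so the share of signal that any probe takes from a related gene was not tested.

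RefSeq promoter sequence was found for 5 of the 8 genes. The 250 bases before the start site of Ces2c, Ces2e and Ces2g are shown because these were the genes with a lung probe past the thresholds used here. Capitals mark a match to the degenerate p53 half-site, on either strand. The windows lie on the plus strand of GRCm38.p6 at chr8:104846818-104847067 for Ces2c, chr8:104926010-104926259 for Ces2e and chr8:104961468-104961717 for Ces2g.
Ces2c: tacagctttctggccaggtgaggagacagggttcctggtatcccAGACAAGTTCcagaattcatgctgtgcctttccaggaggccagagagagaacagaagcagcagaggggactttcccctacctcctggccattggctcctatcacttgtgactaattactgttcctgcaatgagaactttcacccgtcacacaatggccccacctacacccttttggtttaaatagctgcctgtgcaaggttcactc
Ces2e: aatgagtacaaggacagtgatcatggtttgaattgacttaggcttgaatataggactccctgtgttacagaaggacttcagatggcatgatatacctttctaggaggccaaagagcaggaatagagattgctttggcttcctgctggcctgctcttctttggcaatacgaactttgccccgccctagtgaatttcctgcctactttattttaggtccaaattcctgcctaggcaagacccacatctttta
Ces2g: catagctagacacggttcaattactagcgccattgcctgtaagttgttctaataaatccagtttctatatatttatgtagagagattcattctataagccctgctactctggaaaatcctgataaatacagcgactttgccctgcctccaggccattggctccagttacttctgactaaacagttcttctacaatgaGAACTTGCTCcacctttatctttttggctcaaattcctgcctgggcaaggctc
Ces2c and Ces2g each held 1 match to the half-site, Ces2e held none, and neither did the windows of Ces1g and Ces2a. Of 32851 promoter windows of the same length, 7.13% held such a match. The core letters GCGTG, read on both strands as the aryl hydrocarbon receptor's element, were in none of the 5 windows and in 28.2% of all windows. Nor did any of the 5 hold the E-box CACGTG, found in 6.02% of all windows. A match describes letters and not binding, and no match says only that these letters are missing from these windows.

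In lung, 1 probe each of Ces2c and Ces2e stood above all vehicle mice in every DBahA group, and the other probes of these genes differed less. On the Ces2c probe A_55_P2005213 the vehicle lungs read 0.51, 0.71, 0.54, 0.37 and 0.52. The D1 lungs read 2.58, 2.21, 1.43, 1.88 and 2.06, the D2 lungs 2.26, 3.08, 2.37 and 2.51, and the D3 lungs 3.78, 2.97, 2.30, 2.83 and 2.72. Every treated mouse lay above every vehicle mouse, and the group means were ordered by dose. Group means were 2.84-fold, 4.07-fold and 5.24-fold that of vehicle lungs at the rising doses, with an SE of 0.22 to 0.23 log2 units. In whole tissue, more cells that express a gene and more RNA per cell cannot be told apart.

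On the Ces2e probe A_55_P1959500 the vehicle lungs read 0.53, 1.24, 0.62, 0.93 and 0.99. Lungs at D1 read 3.12, 2.45, 2.59, 3.22 and 2.95, those at D2 3.17, 3.07, 3.34 and 3.30, and those at D3 3.49, 3.02, 2.95, 3.57 and 3.16. The vehicle and treated groups did not overlap, and most of the difference was already present at the lowest dose. On the log2 scale D1 stood 2.00 ± 0.16 (SE) above vehicle, D2 2.36 ± 0.17 and D3 2.38 ± 0.16, or 5.19-fold in the ratio. For this probe the Cy3 channel, which holds the same reference RNA on every array, was itself higher on the arrays of treated lungs. Relative to the median signal of each array, and before loess, Cy3 averaged 0.83 ± 0.22 (SD, n = 5) log2 units at D0, 2.23 ± 0.31 (n = 5) at D1, 2.81 ± 0.41 (n = 4) at D2 and 3.20 ± 0.40 (n = 5) at D3, with no overlap between vehicle and treated lungs. Cy5 went from 1.05 ± 0.42 at D0 to 5.28 ± 0.82 at D3 on the same scale. The Cy3 difference at D3, 2.37, was the highest of 55622 probes, and 3 of them exceeded 1. The Cy5 difference of 4.23 was therefore larger than that of the ratio. What moved the reference channel was not tested, and the fold change of Ces2e is that of the ratio alone. For Ces2c A_55_P2005213, Cy3 differed by 0.02 at D3 and Cy5 by 2.15. On the other 9 probes the Cy3 difference at D3 in lung lay between -0.24 and 0.11. The step from D1 to D2, which does not involve the vehicle group, was 0.35 ± 0.17 for Ces2e and 0.52 ± 0.23 for Ces2c A_55_P2005213. Neither step passed limma's test over all probes, with an adjusted p of 1. No probe on the array was called for that step (0% of 55681). An unadjusted limma p below 0.05 was given by 1771 of the 55681 probes, these 2 among them. Both were singled out by their lung values, so nothing is read from this.

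**Figure D1:**
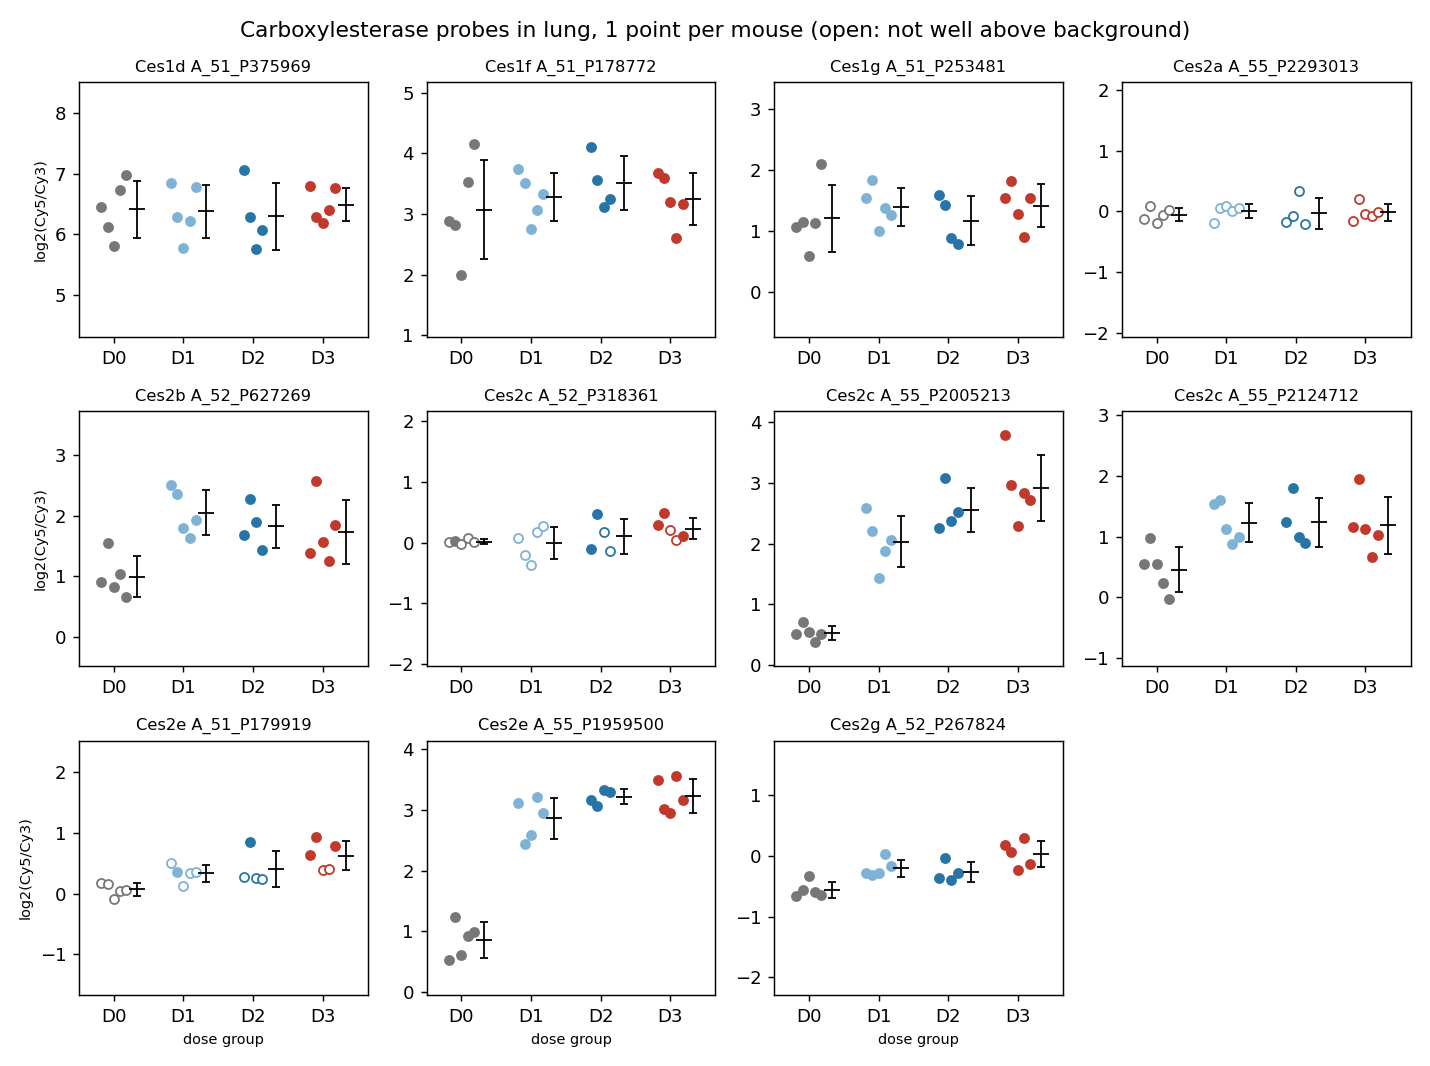
Log2(Cy5/Cy3) of each lung array (points) in the dose groups D0 to D3 for the 11 carboxylesterase probes, with the group mean and SD beside the points and every panel spanning the same number of log2 units; open points were not well above background in Cy5. All treated mice lie above all vehicle mice on Ces2c A_55_P2005213 and Ces2e A_55_P1959500, while Ces1d, Ces1f and Ces1g overlap between groups.

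The 3 probes of Ces2c disagreed in lung. Probe A_55_P2124712 read 0.55, 0.97, 0.56, 0.24 and -0.03 in vehicle lungs and 1.16, 1.95, 1.12, 0.66 and 1.03 at D3. Treated and vehicle mice overlapped on it, and its difference from D0 was flat over dose at 0.77 ± 0.22 (SE), 0.78 ± 0.23 and 0.73 ± 0.22. Probe A_52_P318361 stayed near the reference, with group means of 0.02 ± 0.04 (SD, n = 5) at D0 and 0.22 ± 0.17 (n = 5) at D3, and was well above background on 1 of 5 D0 arrays and 3 of 5 D3 arrays. Its difference at D3 was 0.21 ± 0.12 (SE). The D3 differences of the 3 probes thus ran from 0.21 to 2.39 log2 units. Over the 19 lung arrays, A_55_P2005213 correlated with A_55_P2124712 at r = 0.69 and with A_52_P318361 at r = 0.45. With the dose-group means subtracted, these correlations were 0.41 and 0.46. All arrays share the reference RNA, so these correlations are descriptions.

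Ces2e also had a probe that read little. A_51_P179919 was well above background on 0 of 5 vehicle lungs, 1 of 5 at D1, 1 of 4 at D2 and 3 of 5 at D3. It read 0.18, 0.17, -0.08, 0.04 and 0.06 at D0 and 0.64, 0.93, 0.38, 0.41 and 0.79 at D3. The D3 values all lay above the D0 values, by 0.56 ± 0.12 (SE) on average. Taken against the lowest signal measurable on each vehicle array, the D3 level was at least 1.20-fold higher. On the Feature Extraction ratio, corrected for background, the differences of this probe were 1.54, 1.92 and 3.07 at the rising doses, and the last of these was called. These ratios are set against a vehicle signal that was never well above background. Over 8 alternatives of processing the D3 value ran from 0.28 to 3.07 with 1 call, and 2 of 10 fits without 1 mouse called it.

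The neighbouring genes Ces2b and Ces2g differed less. Ces2b read 0.90, 1.54, 0.82, 1.04 and 0.67 in vehicle lungs and 2.51, 2.36, 1.80, 1.64 and 1.94 at D1, with no overlap. At D2 it read 1.68, 2.28, 1.90 and 1.44, and at D3 1.39, 2.58, 1.57, 1.25 and 1.85, both overlapping with vehicle mouse 2. Its difference from D0 was 1.05 ± 0.23 (SE), 0.83 ± 0.24 and 0.73 ± 0.23, highest at the lowest dose. Ces2g read -0.66, -0.56, -0.34, -0.59 and -0.64 at D0 and 0.19, 0.07, -0.23, 0.29 and -0.12 at D3. These groups did not overlap. D1 stood 0.35 ± 0.10 (SE) above vehicle, D2 0.29 ± 0.11 and D3 0.60 ± 0.10, or 1.51-fold. Ces2a was not well above background on any lung array.

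The lung differences of the Ces1 genes were smaller than their spread. Ces1d, the triacylglycerol hydrolase, had the highest ratio to the reference of any of the 11 probes in lung, with 6.44, 6.12, 5.80, 6.73 and 6.98 at D0 and 6.79, 6.29, 6.19, 6.41 and 6.76 at D3. Its difference at D3 was 0.07 ± 0.24 (SE). Ces1f ran from 1.99 to 4.15 in vehicle lungs and from 2.61 to 3.67 at D3, a difference of 0.17 ± 0.30. Ces1g ran from 0.59 to 2.10 in vehicle lungs and from 0.90 to 1.83 at D3, a difference of 0.21 ± 0.23. For each of the 3 genes the vehicle mice spanned the treated ones or nearly so.

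A probe was called where limma, adjusted by Benjamini-Hochberg over all probes, gave p of 0.05 or less together with a change of 1.5-fold or more. At D1 and D2, 2 of the 11 probes were called, those of Ces2c and Ces2e described first, and at D3 Ces2g was called too. Of all probes 0.140%, 0.264% and 0.639% were called at the rising doses, and since the genes were chosen on lung values nothing is read from this. The median difference over the 11 probes was 0.27, 0.34 and 0.56 at the 3 doses, against medians of 0.00 over all probes. Values did not overlap with those of D0 for 4 of 11 probes at D1, 3 at D2 and 4 at D3, against 1.36%, 2.65% and 3.12% of all probes. With arrays centred on their medians in place of loess, neither Ces2c (1.37 and 1.85) nor Ces2e (1.61 and 1.92) was called at D1 and D2, and Ces2g (0.79) was not at D3.

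The differences were also read within slides. Of the 5 slides, 4 held a vehicle lung, and within them Ces2c A_55_P2005213 and Ces2e A_55_P1959500 were higher than the vehicle lung in 4 of 4 D1, 3 of 3 D2 and 4 of 4 D3 comparisons. At D3 the within-slide differences ran from 1.76 to 2.46 for Ces2c and from 1.78 to 2.64 for Ces2e. With slide as a block, Ces2b and Ces2c A_55_P2124712 were called at every dose, at 1.03 and 0.70 for D1, 0.78 and 0.65 for D2, and 0.71 and 0.66 for D3. Ces2g fell under the fold threshold with slide as a block, at 0.58. This also happened with scan day as a block (0.57), in the deposited value table (0.58) and without vehicle mouse 1 (0.57), vehicle mouse 5 (0.57), D3 mouse 16 (0.56) or D3 mouse 19 (0.53).

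**Figure D2:**
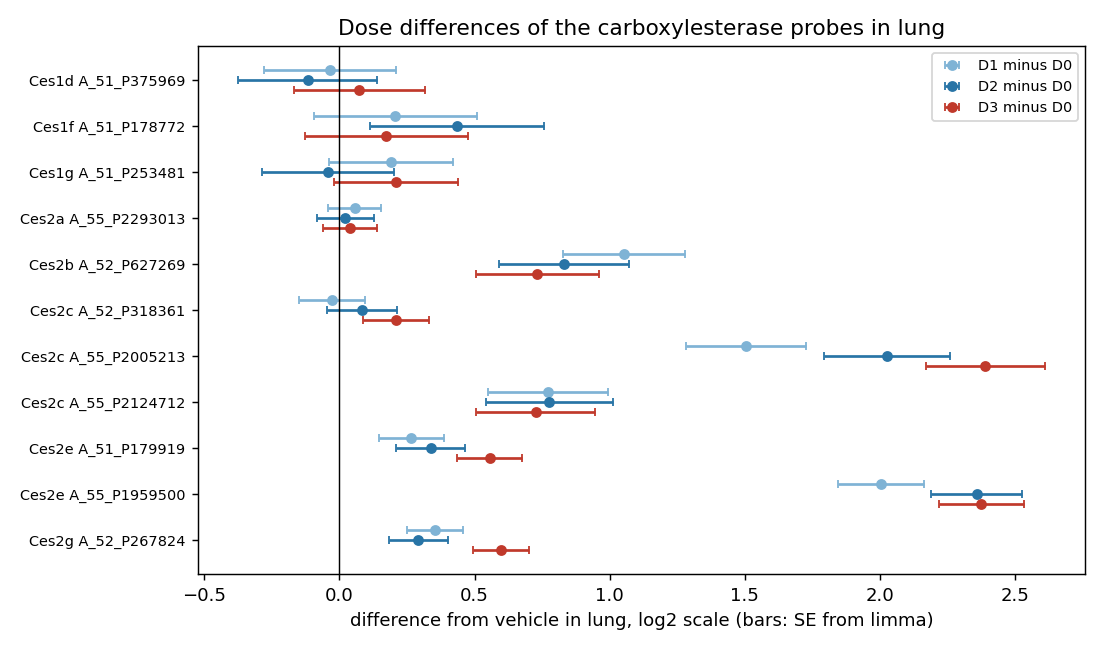
Difference of each dose group from vehicle in lung on the log2 scale, with the SE from limma as bars, for the 11 probes. The 2 probes beyond 1.5 log2 units at every dose are Ces2c A_55_P2005213 and Ces2e A_55_P1959500; the other Ces2c probes lie at 0.78 or lower.

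The lung profile was checked against markers of the cell types the tissue could hold. All 9 markers of lung epithelium with a probe, surfactant and club-cell genes among them, were well above background on every lung array. Their mean score, the difference from the D0 mean averaged over the list, ran from -0.27 to 0.32 at D0 and from -0.40 to 0.13 at D3. At D1 it ran from -0.47 to 0.225, and at D2 it spread most, from -0.84 to 0.40. A list of 6 club-cell genes ran from -0.59 to 0.47 at D0 and from -0.74 to 0.56 at D3. Glandular stomach, intestine and liver markers in lung moved by at most 0.44 from the D0 mean. The liver list stood at 0.22 to 0.37 at D2 and 0.00 to 0.44 at D3, against -0.21 to 0.22 at D0. Heart muscle markers ran from -0.71 to 0.63 at D0 and from -0.92 to 1.79 at D3. The part of either list in the results was not tested.

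By Pearson's r over the 19 lung arrays, the 3 Ces2c probes had different nearest genes among 13677 measured genes. For A_55_P2005213 they were Aen (0.98), Thyn1 (0.97), Commd3 (0.96), Cdkn1a (0.96), Trp53inp1 (0.96), Dglucy (0.95), Zmat3 (0.95), Serp2 (0.95), Rps27l (0.95) and Rgs12 (0.95). Ces2e ranked 39 on that list at 0.91, Ces2g 278 at 0.81 and Ces2b 1445 at 0.63. For A_55_P2124712 the nearest gene was Ces2b at 0.92, and the next were Tle5 (0.92), Hoga1 (0.91), Abhd16a (0.90), Adprh (0.89), Vta1 (0.89), Cops8 (0.89), Emc3 (0.88), Rfxank (0.87) and Atp6ap1 (0.87). Within dose groups, A_55_P2124712 and Ces2b still correlated at 0.88, while A_55_P2005213 and Ces2e did so at 0.32. For A_52_P318361, often below background, no gene passed 0.77; the nearest were Zbtb11os1 (0.77), Gcnt1 (0.76), B3galt6 (0.72), Sike1 (0.71), Sdhb (0.71), Scn7a (0.71), Ginm1 (0.71), Flywch2 (0.70), Lbh (0.70) and Decr1 (0.70).

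In forestomach no carboxylesterase probe differed between DBahA and vehicle mice by limma. None of the 11 probes was called in any dose group, nor was any other probe on the array (0% of 55681 at each dose), and every adjusted p of the family rounded to 1. Unadjusted p-values below 0.05 were given by 0 of the 11 probes, and by 2402, 1737 and 1986 of all probes at the rising doses. The differences at D3 were 0.73 ± 1.34 (SE) for Ces2c A_55_P2005213, 0.82 ± 1.66 for A_55_P2124712, 0.87 ± 1.58 for A_52_P318361 and 0.86 ± 1.53 for Ces2b. These errors are several times those in lung, so a difference of the size seen in lung was not detectable for Ces2c. Ces2e A_55_P1959500 varied less, with differences of 0.47 ± 0.32, 0.06 ± 0.34 and 0.36 ± 0.34 at the rising doses. No carboxylesterase probe had dosed forestomachs that stood apart from all vehicle ones, against 0.549%, 0.970% and 1.13% of all probes at the 3 doses. The lung difference at D3 exceeded the forestomach difference by 2.02 ± 0.38 for Ces2e A_55_P1959500 and by 1.66 ± 1.34 for Ces2c A_55_P2005213, given without a test because the lung part was known.

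The forestomach spread followed the amount of glandular stomach signal. The forestomach is lined with squamous epithelium and adjoins the glandular stomach, and 7 or 8 of 8 squamous markers were well above background on every forestomach array. On 6 arrays, those numbered 2, 5, 8, 9 and 15 and 1 of the pair numbered 18, the score of 9 glandular markers (gastric proton pump, pepsinogen and mucosal genes) was between -3.39 and -2.80, with 2 to 7 of them above background. On the other 13 arrays it was between 0.86 and 2.74. Ces2c A_55_P2005213 read 0.42 to 1.41 on the 6 arrays and 3.60 to 6.39 on the 13. Ces2b read 0.51 to 1.51 and 3.36 to 7.60, and Ces2g -0.05 to 0.49 and 0.92 to 3.41. Thus every probe of Ces2b, Ces2c and Ces2g was low on the 6 arrays and high on the 13, with no overlap. Ces1d, Ces1f and Ces2e overlapped between the sets, with Ces2e A_55_P1959500 at 1.64 to 2.30 and 1.20 to 3.41. Leaving out the 6 arrays was chosen after seeing the data. Without them no probe of the family was called at any dose, and Ces2c A_55_P2005213 differed from D0 by -0.37 at D3.

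**Figure D3:**
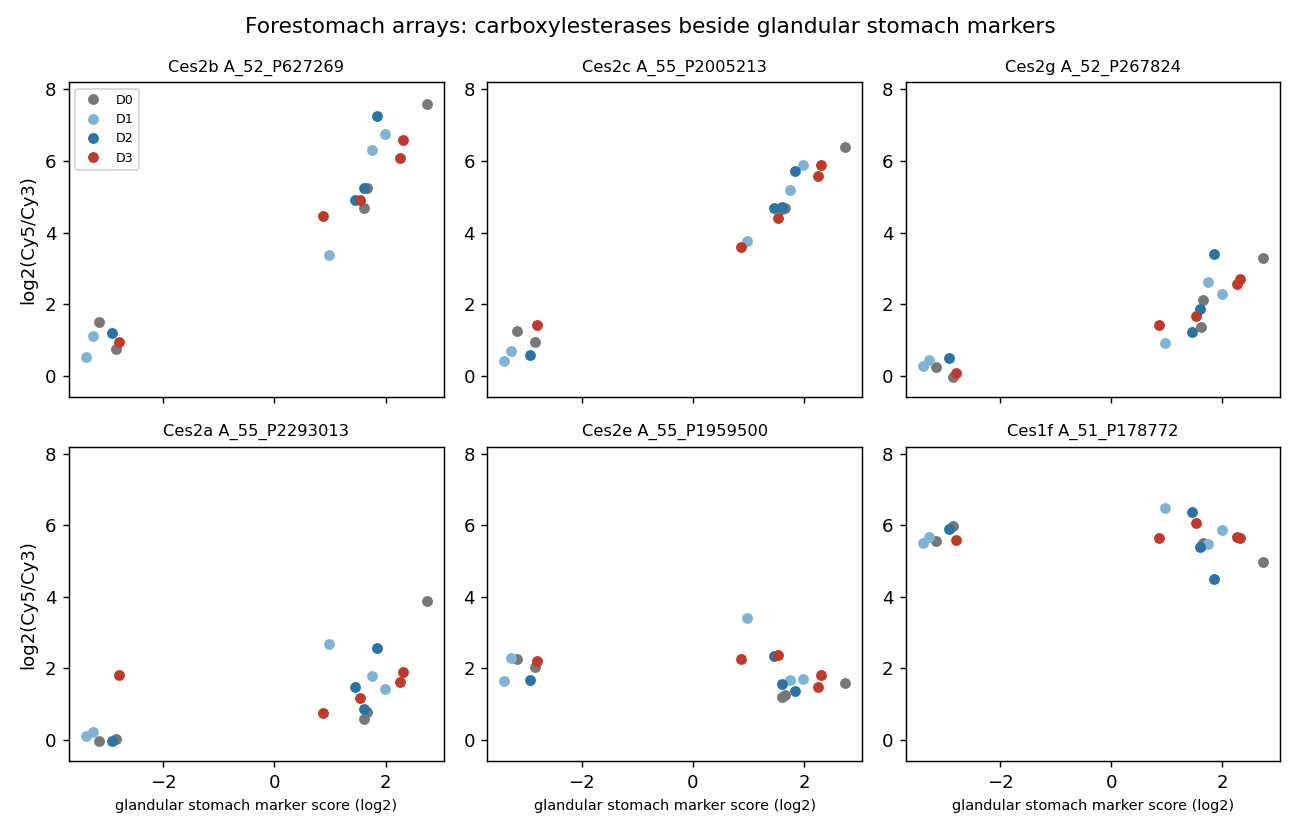
Log2(Cy5/Cy3) of 6 carboxylesterase probes on each of the 19 forestomach arrays (points, coloured by dose group) against the glandular stomach marker score, the mean difference of 9 marker genes from the D0 mean. Ces2b, Ces2c and Ces2g split with the score, all dose groups on both sides, while Ces2e and Ces1f do not.

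The 3 Ces2c probes ran together on the forestomach arrays with glandular signal. On the 13 arrays with glandular signal, A_55_P2005213 correlated with A_55_P2124712 at r = 0.98 and with A_52_P318361 at r = 0.95, and A_52_P318361 and A_55_P2124712 correlated at r = 0.98. A_52_P318361, near the reference in lung, read 2.56 to 6.81 on these 13 arrays. Ces2b correlated with the 3 probes at 0.94 to 0.99 there, and at 0.13 to 0.68 on the 6 arrays with little glandular signal. On those 6 arrays the Ces2c pairs, in the order given above, correlated at 0.90, 0.91 and 0.66. The values 0.91 and 0.66, and the 0.13 with Ces2b, involve A_52_P318361, which read only -0.11 to 0.31 there. This probe was well above background on 3 of 5 forestomach arrays at D0, 3 of 5 at D1, 3 of 4 at D2 and 4 of 5 at D3. Little is read from those 3 correlations. Both arrays labelled mouse 18 were far apart: Ces2c A_55_P2005213 read 1.41 and 5.89, Ces2b 0.95 and 6.58, and the glandular score was -2.80 and 2.31. Using either array alone or both as replicates left 0 of the 11 probes called at D3. Mouse 6 at D1 had the highest Ces1d (5.54), Ces1f (6.50) and Ces2e (3.41) of the forestomach arrays, and also the highest score of 8 intestine markers, 3.06 against at most 0.97 elsewhere. Liver markers in forestomach scored 0.48 to 2.07 at D3 and -0.90 to 1.08 at D0, and neither list's part was tested.

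In vehicle mice most carboxylesterase probes differed in level between the tissues. Lung was set against forestomach at D0 in a joint limma fit of all arrays, which called 9 of the 11 probes, of 7 genes, against 16.2% of all probes. Higher in lung were Ces1d, by 2.64 ± 0.42 (SE, adjusted p = 5.36e-06 by limma), and Ces1g, by 1.06 ± 0.21 (adjusted p = 1.69e-04 by limma). In vehicle forestomachs Ces1g was never well above background, and it was at least 1.75-fold higher in lung. Lower in lung was Ces1f, by 5.34-fold (log2 difference -2.42 ± 0.31, adjusted p = 1.42e-07 by limma), with 1.99 to 4.15 in lung and 4.98 to 5.97 in forestomach. Lungs and forestomachs did not overlap on any of the 3 Ces1 probes. The Cy3 reference channel, centred on each array's median, also differed between the tissues at D0. For Ces1d it averaged 0.79 ± 0.25 (SD, n = 5) in lung and -0.44 ± 0.16 (n = 5) in forestomach, without overlap. For Ces1f it averaged -0.18 ± 0.30 and 1.07 ± 0.83, and for Ces1g -0.47 ± 0.16 and -0.60 ± 0.13. What moved Cy3 was not tested, and these tissue differences are those of the ratio alone. On the Feature Extraction ratio the Ces1d difference was 0.41 and not called (adjusted p = 0.52 by limma).

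Ces2b, Ces2c, Ces2g and 1 of the 2 Ces2e probes were lower in lung at D0. Ces2c differed by -3.05 ± 0.92 (SE), -3.73 ± 1.14 and -3.15 ± 1.07 on A_55_P2005213, A_55_P2124712 and A_52_P318361, with adjusted p of 0.0108, 0.0116 and 0.0250 by limma. The joint fit uses 1 spread per probe for both tissues, though the spreads were unlike. The SD of A_55_P2005213 at D0 was 0.12 in lung and 2.38 in forestomach. Its Cy3 signal at D0 ran from 0.12 to 0.90 in lung and from 0.36 to 2.18 in forestomach. Its tissue difference is therefore that of the ratio alone. A_52_P318361 was well above background on 1 of 5 vehicle lungs and 3 of 5 vehicle forestomachs. Ces2b differed by -2.96 ± 1.05 (adjusted p = 0.0321), Ces2g by -1.94 ± 0.47 (adjusted p = 0.00163) and Ces2e A_55_P1959500 by -0.81 ± 0.26 (adjusted p = 0.0155 by limma). Ces2a, at -1.10 ± 0.50, was not called (adjusted p = 0.102 by limma). It was above background on 2 of 5 forestomach arrays and on no lung array, which put forestomach at least 1.60-fold higher. The forestomachs of mice 2 and 5, with little glandular signal, lay close to the lungs, with Ces2c A_55_P2005213 at 1.26 and 0.93 against 0.37 to 0.71 in lung. Those of mice 1, 3 and 4 read 6.39, 4.68 and 4.65. Without arrays of low glandular signal the Ces2c difference was -4.71, and that of Ces2e was -0.49 and no longer called (adjusted p = 0.237 by limma). Leaving out forestomach mouse 1 ended the calls of Ces2b (-2.04) and of all 3 Ces2c probes (-2.35, -2.80 and -2.24). Ces2b was called in 4 of 10 fits that left out 1 D0 array, the call ending also without lung mouse 1, 3 or 5 or forestomach mouse 3 or 4. Ces2c A_52_P318361 was called in 7 of 10, the call ending also without forestomach mouse 3 or 4, and Ces2e lost its call without forestomach mouse 2 (-0.67). In a fit of the D0 groups alone neither Ces2b nor Ces2c A_52_P318361 was called (adjusted p = 0.0693 and 0.0604 by limma). With arrays centred on their medians, 1 of the 9 calls was left, that of Ces1d at 2.11 (adjusted p = 0.00404 by limma). Ces1f was then -1.19 (adjusted p = 0.0603 by limma) and Ces2c A_55_P2005213 -1.92 (adjusted p = 0.105 by limma). With DBahA the Ces2e ratios in lung, 2.45 to 3.57, passed those of every D0 forestomach, 1.20 to 2.26, as a description.

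**Figure D4:**
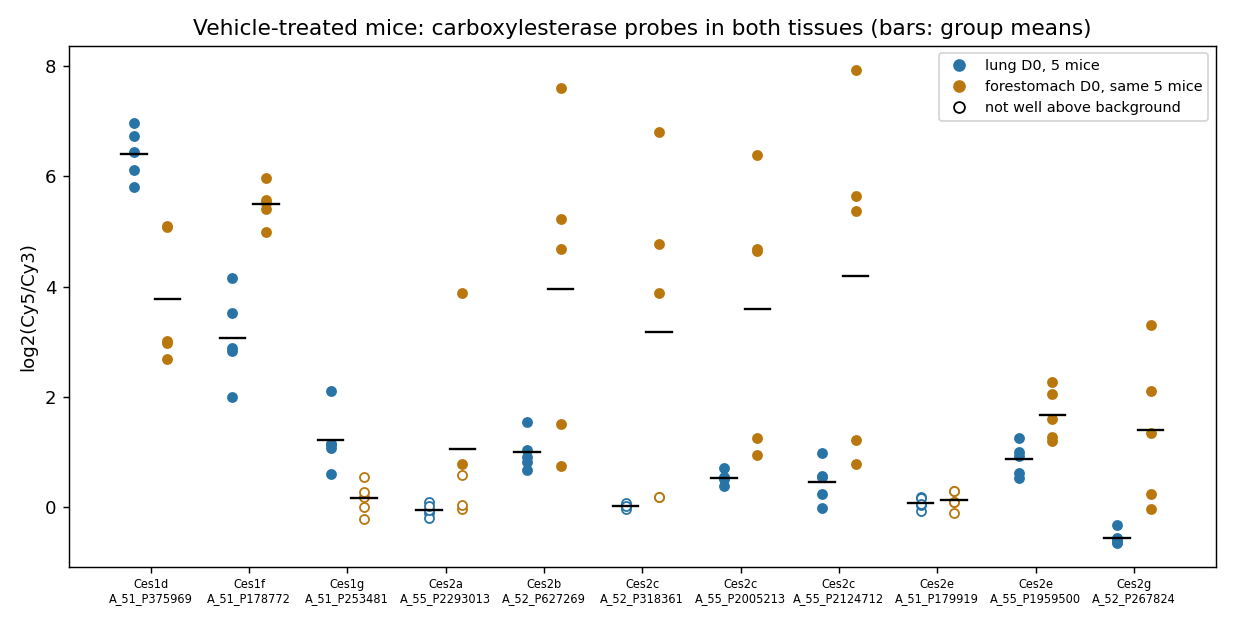
Log2(Cy5/Cy3) of the 11 probes in lung and forestomach of the same 5 vehicle mice (points), with group means as bars; open points were not well above background in Cy5. Ces1d is higher in lung and Ces1f in forestomach without overlap, and Ces2b, Ces2c and Ces2g spread over several log2 units in forestomach.

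Other genes of the family and of ester hydrolysis were read for context. Of 12 further carboxylesterase genes, 9 had a probe, 0 were called by dose in either tissue, and 1, Ces1e, was above background on most lung arrays. Ces1e was higher in lung than in forestomach at D0 by 1.78 (adjusted p = 1.75e-04 by limma) and differed by 0.05 at D3 in lung. Among 16 other hydrolases 1 was called in lung at each dose. This was Ephx1, microsomal epoxide hydrolase, which opens the epoxides formed from polycyclic aromatic hydrocarbons, and it was higher by 0.78, 1.02 and 1.05 at the rising doses, given as a description because the list was chosen with results of these lungs known. In forestomach it differed by 0.32 at D3 and was not called (adjusted p = 1). Of the 16, 11 were called between the tissues at D0, where 16.2% of all probes were called. In each tissue 14 of the 16 were above background on most arrays. The differences ran from Aadac, arylacetamide deacetylase, at -5.55 in lung against forestomach to Pon1, paraoxonase, at 5.14. Of 10 genes for receptors and factors that act on carboxylesterase genes, 0 were called by dose. The median difference at D3 in lung was -0.01 for the further carboxylesterases, 0.08 for the hydrolases and -0.04 for the regulators. At D0 5 of the 10 regulators were called between tissues, beside the same 16.2% of all probes. Ahr (2.07) and Nr3c1 (1.21) were higher in lung, and Ppara, Nfe2l2 (-1.15) and Hnf4a (-2.51) were lower. Of 3 Ppara probes, the brightest in lung differed by -1.02 and the brightest in forestomach by -1.96. The alternatives of processing were not run for these lists.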

How the data were processed

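Total RNA of lung and forestomach was hybridised with Cy5 against a Cy3 reference RNA on 38 dual-colour Agilent arrays, with no dye swap. The deposited scanner files hold spot intensity from Agilent Feature Extraction 10.7.3.1 (array annotation on build mm9), neither background-corrected nor normalized in the median signal used here. Per the file headers, they also hold a log10 ratio made after the program's own background and dye correction. The authors deposited a table of log2 ratios, whose scale is unstated but which followed the values computed here with slopes of 0.99 to 0.998; its column medians lay between -0.0415 and -0.0195, and it served as an alternative, as did the log10 ratio.

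As in the study's methods, loess within each array was applied to median intensities, and no background was subtracted. Control spots and 372 values marked as outliers were left out, and spots of a probe were averaged to 55681 probes. To read the channels apart, log2 median signals were centred on each array's median, a step added after seeing the data. Symbols were assigned to 26413 probes by unversioned accession from RefSeq for GRCm38.p6. On each array 30.1% to 63.8% of probes passed the program's well-above-background test in Cy5, and the number of arrays limits the precision. limma 3.58.1 in R 4.3.3 was fitted to each tissue, or to both for the tissue difference, and tested on simulated data. MAANOVA, named in the methods, was not used. The members and lists were chosen with earlier results of these data known. All member probes were named; of the other lists, genes called in a contrast; and for likeness, the 10 genes with the highest r. Alternatives covered background correction, normalization, dim probes, slide (5) and scan day (3) as blocks, mouse 18, mouse as a block and each mouse left out. Mouse numbers mark the same animal in both tissues. Deviations from the group means correlated across tissues at 0.0751 to 0.249 over 18 mice (median 0.186).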

Additional observations from a re-analysis of the deposited data

Results flagged for a closer look

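Of 88 sets of 4 or 5 mice (11 probes in 8 groups), 4 held a mouse set apart from the others by Dixon's ratio, the gap to the nearest mouse over the whole range, where chance gives about 1 in 20. Ces1f in forestomach at D3 was highest in mouse 16 (ratio 0.889), at 6.06 against 5.61 to 5.66 in the others. Ces2a in forestomach at D0 was highest in mouse 1 (ratio 0.79), at 3.89 against -0.04 to 0.79, and this mouse also had the highest glandular stomach score, 2.74. Ces2e A_51_P179919 in lung at D2 was highest in mouse 12 (ratio 0.944), at 0.86 against 0.25 to 0.28, and this was the only D2 lung where the probe was well above background. Ces2g in lung at D0 was highest in mouse 3 (ratio 0.715), at -0.34 against -0.66 to -0.56. The cause was not tested for any of them.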

How the results depend on the processing

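Over 8 contrasts, 313 of 313 alternative values of the called probes kept their sign, and 277 kept the call. Median centring in place of loess left 0 of the 11 probes called in lung at D1, 0 at D2 and 1 between the tissues at D0, Ces1d; the cause was not tested. At D3 in lung it left Ces2c A_55_P2005213 (2.15) and Ces2e A_55_P1959500 (1.88) called. Slide as a block raised the lung counts to 4 at D1 and 4 at D2. Leaving out each mouse in turn gave 2 to 3 probes called in lung at D1, 2 at D2, 2 to 4 at D3, and 5 to 10 between the tissues, with the 5 found without forestomach mouse 1. Between the tissues, Ces1d fell to 0.41 (adjusted p = 0.52 by limma) on the Feature Extraction ratio. Mouse as a fixed or random replicate block left 9 probes called between the tissues and changed no call of a member there. The step from D1 to D2 and the forestomach contrasts gave 0 calls under every alternative run. The filter on dim probes gave no value for Ces2a in lung, or for Ces1g and Ces2e A_51_P179919 in forestomach. Leaving out the 6 forestomach arrays with low glandular markers was chosen after seeing the data and left 9 calls between the tissues, with Ces2a gained (-1.80) and Ces2e lost (-0.49).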
